A study of Rattus norvegicus with 28 samples.

Results

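Ion channel subunit genes were examined in C6, a cell line derived from a rat glioma and used as a model of astrocytes. A probe was counted as a member when its single gene symbol began with Kcn (potassium channels), Cacn (calcium channels), Scn and a digit (sodium channels), Clcn (chloride channels and transporters), Trpa, or Trpc, Trpm or Trpv and a digit (transient receptor potential channels), Hcn and a digit (channels opened by hyperpolarization), or P2rx (channels opened by extracellular ATP). This gave 147 probes for 142 genes. The array table has 22523 probes, of which 13793 carry 1 symbol and name 13337 genes. Piezo1, which the rule also names, was not analysed here. The rule takes in Trpc4ap, whose protein associates with a Trpc channel and is not itself a channel.

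Illumina bead arrays for rat genes were used to measure RNA in 28 samples. All cells had 24 h without serum. The groups were untreated cells (6 arrays) and cells given desipramine (6), fluoxetine (6), haloperidol (6) or diazepam (4, numbered 1, 4, 5 and 6), each drug at 25 µM for 2 h. Desipramine is a tricyclic antidepressant, fluoxetine an antidepressant that inhibits serotonin reuptake, haloperidol an antipsychotic and diazepam a benzodiazepine. The labels call the replicates biological without saying whether they came from separate cultures, so p-values measure the spread between these samples. Untreated cells have no stated vehicle, and a single tumour line at an early passage after thawing stands for astrocytes here.

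An ion channel is built from pore subunits, which conduct the ion, and auxiliary subunits, which set where the pore sits and how it opens. In astrocytes, potassium channels that stay open near rest, Kir4.1 (Kcnj10) above all, hold the membrane potential and take up potassium that neurons release. Voltage-gated sodium and calcium channels carry most of the current in neurons and muscle. Gliomas are known for chloride channels, for potassium channels opened by calcium and for channels that respond to stretch or cell volume.

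The cells were checked against marker genes of the cell types of brain. Of 7 astrocyte markers with a probe, Gfap, Gja1, S100b, Slc1a3 and Vim were detected on all 28 arrays and Aqp4 on none. Neuronal and oligodendrocyte genes were present in part: 4 of 9 (Gad1, Map2, Nefl and Syt1) and 3 of 7 (Cnp, Olig1 and Sox10) were detected on all arrays, while Slc17a7, Snap25, Mag and Mog were detected on none. None of 5 microglial and none of 3 endothelial markers was detected on all arrays, and the microglial genes Aif1, Ptprc and Tyrobp were detected on none. Of the endothelial markers, Cldn5 was detected on 26 arrays and Cdh5 and Tek on 0. The line thus carried astrocyte markers together with some genes of neurons and oligodendrocytes. Between 9839 and 10537 probes were detected per array. The channel calls made without a block for array number are also given within array numbers 1 to 4 and within 5 and 6. That split was chosen with earlier results of these data known, and no value for a difference between the sets is given here.

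Most ion channel genes gave no signal above background in C6. A probe was taken as detected when its detection p, which ranks it against the negative control probes of the same array, was under 0.05. By that measure 23 of the 147 probes (15.65%) were detected on all 28 arrays and 85 (57.82%) on none, against 37.24% and 44.01% of all probes on the array. Of the 13793 probes with 1 symbol, as the members have, 45.89% were detected on all arrays and 35.99% on none. Another 10 were detected on 1 to 3 arrays and 29 on 4 or more but not on all. Each array detected between 38 and 47 of the 147, where a threshold of 0.05 lets through 7.35 probes that behave like negative controls. The number did not separate the groups. Untreated arrays detected 42.0 ± 1.79 channel probes (SD, n = 6) and diazepam arrays 42.0 ± 3.74 (n = 4). The mean was 42.8 ± 2.48 for desipramine arrays, 42.8 ± 0.753 for haloperidol arrays and 43.3 ± 1.97 for fluoxetine arrays (n = 6 each). The values are from bulk RNA, in which fewer cells of a type and less RNA per cell cannot be told apart. A probe that is not detected may also be a poor probe, and its gene is described here as not detected.

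**Figure D1:**
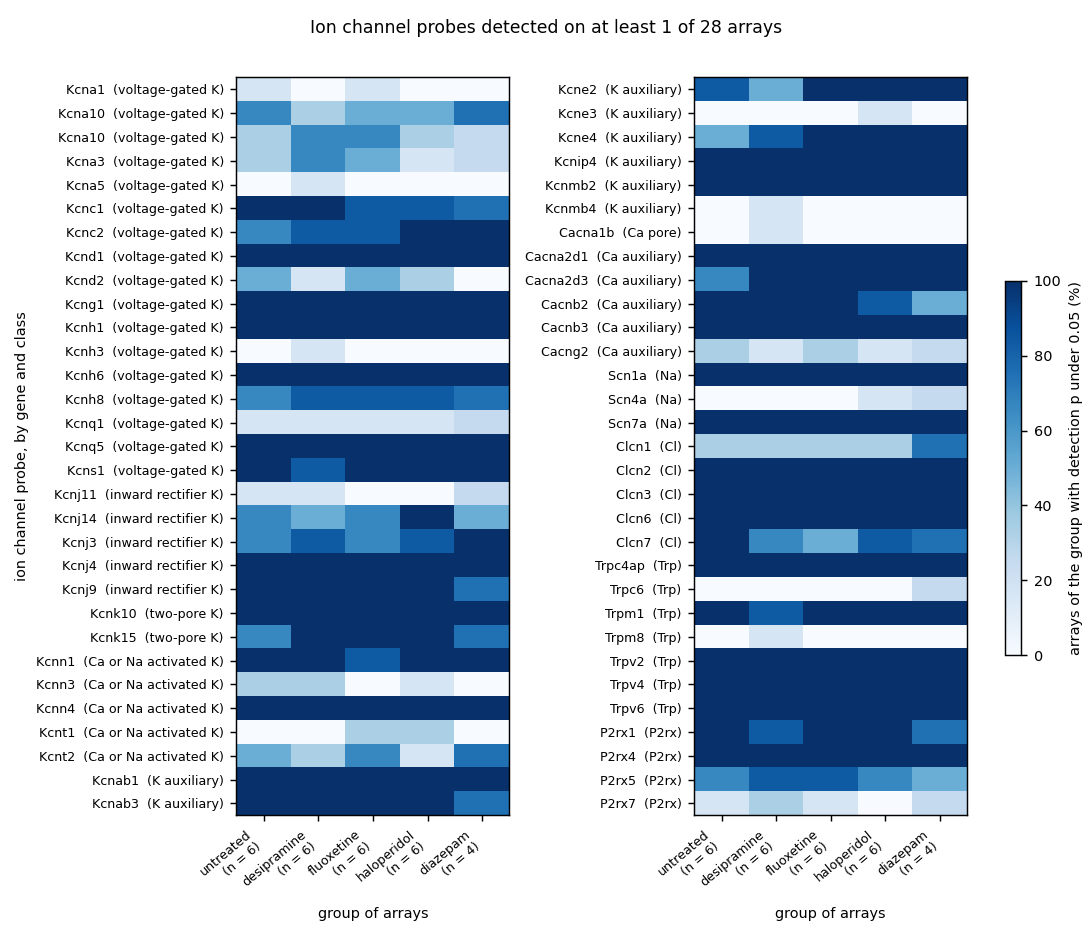
Percentage of the arrays of each group on which each ion channel probe was detected (detection p under 0.05), for the 62 probes detected on at least 1 of 28 arrays, ordered by functional class. Of these, 23 were detected on every array of all 5 groups.

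Most potassium channels of the kinds that hold the resting potential of astrocytes were not detected. Kcnj10 was detected on 0 of 28 arrays, as were Kcnj2, Kcnj16 and 6 other inward rectifiers, and of 14 inward rectifier probes only Kcnj4, which encodes Kir2.3, was detected on all arrays. Of the 11 probes for tandem-pore (K2P) channels, which pass the leak current of many cells, 9 were never detected, Kcnk1 and Kcnk2 among them. Kcnj9, a subunit of the channels that G protein βγ opens, was detected on 27 arrays with group means of 5.68 to 6.12, its partner Kcnj3 on 22 (5.41 to 5.61), Kcnj14 on 19 (5.25 to 5.52) and Kcnj11 of the ATP-sensitive channel on 3. Kcnk10, a K2P channel opened by stretch and fatty acids, was detected on all 28 arrays and Kcnk15 on 25 (5.42 to 5.53). Both Kcnj4 (5.68 ± 0.15 in untreated cells) and Kcnk10 (5.68 ± 0.13) lay close to background on the log2 intensity scale used here, and neither stayed detected on all arrays at a detection p under 0.01.

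Voltage-gated potassium channels were the largest class, with 39 probes. On all arrays 5 genes were detected, and 22 probes were never detected. Kcnd1, which encodes the fast-inactivating Kv4.1, had a mean log2 intensity of 8.93 ± 0.04 (SD, n = 6) in untreated cells. Kcng1, a subunit with no current of its own that modifies Kcnb channels, stood at 8.05 ± 0.25, and Kcnh6, of the Erg family, at 7.27 ± 0.17. Kcnq5, a channel of the M-current, stood at 6.94 ± 0.25 and Kcnh1, the Eag1 channel found in many tumours, at 5.87 ± 0.09. Kcnh2, which encodes the cardiac HERG channel known to be blocked by antipsychotics and tricyclics, was detected on 0 of 28 arrays. Dimmer members of the class were Kcns1 (27 arrays, group means of 5.37 to 5.57) and Kcnc1 (25 arrays, 5.42 to 5.61), and Kcna3 was detected on 11 arrays, Kcnd2 on 9 and Kcnq1 on 5. Kcna1 was detected on 2 arrays and Kcna5 and Kcnh3 on 1 each. Among those never detected were Kcna2, Kcna4, Kcna6, Kcnb2, Kcnd3 and Kcnq3. Of the genes with more than 1 probe, Kcnc2 was detected on 24 arrays by one probe and on 0 by the others, Kcnh8 on 22 by one and 0 by the other, and Kcna10 on 15 and 13, so these 3 genes rest on probes that differ or are dim. Both Kcnk5 probes were detected on 0 arrays.

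Among potassium channels opened by intracellular calcium or sodium, only Kcnn4 was detected on all arrays. It encodes KCa3.1, which opens when calcium binds to calmodulin on the channel. Kcnma1, the pore of the large-conductance BK channel that is well known in gliomas, was detected on 0 of 28 arrays, although its auxiliary subunit Kcnmb2 was detected on all 28 (6.17 ± 0.28 in untreated cells). Kcnn1, a small-conductance relative of Kcnn4, was detected on 27 arrays (group means of 5.48 to 5.61), Kcnt2 on 13, Kcnn3 on 5 and Kcnt1 on 4. The other auxiliary subunits detected on all arrays were Kcnab1, a beta subunit of Kv1 channels (8.88 ± 0.19), and Kcnip4, a calcium-binding partner of Kv4 channels such as Kcnd1 (8.49 ± 0.11). Kcne2, a single-span subunit that pairs with several pores, was detected on 24 arrays, as was Kcne4 (group means of 5.35 to 5.54), and Kcnab3 on 27 (5.46 to 5.65). Kcne3 and Kcnmb4 were detected on 1 array each. The other 3 Kcnip genes, Kcne1 and Kcnmb1 were never detected.

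Calcium channel pores were mostly not detected, while some of their auxiliary subunits were detected on every array. Of 7 probes for Cacna1 pores, 6 (Cacna1a, Cacna1c, Cacna1d, Cacna1e, Cacna1g and Cacna1h) were detected on 0 arrays and Cacna1b on 1. Cacna2d1, the extracellular subunit that gabapentin binds, was detected on all 28 arrays at 10.65 ± 0.06 in untreated cells. The intracellular subunit gene Cacnb3 was also detected on all 28, at 9.30 ± 0.15. Cacna2d3 was detected on 26 arrays and Cacnb2 on 25, while Cacng2, which mainly serves glutamate receptors, was detected on 7. Another 11 auxiliary probes were never detected.

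Of 11 sodium channel probes, 8 were never detected, among them Scn2a and Scn8a of neurons. Scn7a, which encodes Nax, a relative of the sodium channels that senses extracellular sodium in glia, was detected on all arrays at 8.39 ± 0.19 in untreated cells. Scn1a, a channel of neurons, was detected on all arrays at 6.89 ± 0.16, and Scn4a of muscle on 2. Neither Hcn3 nor Hcn4, the only Hcn genes with a probe named here, was detected on any array.

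Chloride channels and transporters were the class with the largest share detected on every array, 3 of 7 probes (42.86%). Of all probes with 1 symbol, 45.89% were so detected. The 3 probes were those of Clcn2, a chloride channel of the plasma membrane (6.09 ± 0.13 in untreated cells), and the endosomal exchangers Clcn3 (7.23 ± 0.13) and Clcn6 (6.11 ± 0.19). At a detection p under 0.01 Clcn6 was detected on 27 arrays, and the class then no longer had the largest share. Clcn7 of the lysosome was detected on 21 arrays and Clcn1, the muscle channel, on 11, while Clcn4 and Clcn5 were detected on 0.

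Among the 12 transient receptor potential probes, Trpv2, Trpv4, Trpv6 and the associated gene Trpc4ap were detected on all arrays. Trpv4, which responds to cell swelling and is expressed in astrocytes, stood at 7.23 ± 0.23 in untreated cells. Trpv6, a calcium-selective channel of epithelia, stood at 6.98 ± 0.30, Trpv2 at 6.08 ± 0.15 and Trpc4ap at 10.57 ± 0.06. Trpm1, known from the retina and melanocytes, was detected on 27 arrays, and Trpc6 and Trpm8 on 1 each. Trpa1, Trpc5, Trpv1, Trpv3 and Trpv5 were never detected. Of the ATP-gated channels, P2rx4 was detected on all arrays (8.77 ± 0.11), P2rx1 on 26, P2rx5 on 20 and P2rx7, the receptor known from microglia, on 5, and P2rx2 and P2rx6 on 0. These detection counts depend on the threshold. At a detection p under 0.01, 18 probes rather than 23 were detected on all arrays, Clcn6, Kcnh1 and Kcnmb2 being lost beside Kcnj4 and Kcnk10, and 108 rather than 85 on none.

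The 52 probes detected on at least 4 arrays entered the tests, in which limma compared group means over all 11364 probes so detected. A member that passed this filter may have done so through 1 group. Differences are log2 changes ± SE with Benjamini-Hochberg adjusted p-values taken across those 11364 probes, and a call is an adjusted p under 0.05. The offset of 16 added before the log pulls the changes of dim probes toward 0.

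Desipramine changed 1 of the 52 tested ion channel probes, that for Kcnn4, which was higher. Over all probes tested, 5.59% were called in this comparison and 3.37% were called higher. Kcnn4 (probe ILMN_1364008, the only probe for the gene) had log2 intensities of 10.39, 9.99, 10.20, 10.01, 9.88 and 9.83 in untreated arrays 1 to 6. With desipramine the values were 10.73, 10.61, 11.32, 11.17, 11.03 and 10.00. Desipramine arrays 1 to 5 were above every untreated array, and desipramine array 6 lay within the untreated range, so the groups overlapped. The mean rose from 10.05 ± 0.21 to 10.81 ± 0.48 (SD, n = 6 and 6), a 1.69-fold rise (log2 change 0.76 ± 0.14, 95% interval 0.48 to 1.04, limma adjusted p = 0.00077).

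Each desipramine array was above the untreated array of the same number, by 0.34, 0.62, 1.11, 1.16, 1.15 and 0.17 for numbers 1 to 6. The spread among the desipramine arrays was the widest of the 5 groups, so the spread pooled over groups understates the error of this mean. Among the 383 probes called higher with desipramine, Kcnn4 ranked 51 by size of change.

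In the other groups Kcnn4 stayed within or near the untreated values. It ranged from 9.86 through a median of 10.04 to 10.21 with fluoxetine, and from 9.76 through 9.85 to 9.96 with haloperidol. The diazepam arrays 1, 4, 5 and 6 had 9.95, 9.90, 9.92 and 10.18. The changes against untreated cells were -0.01 ± 0.14 with fluoxetine (adjusted p = 0.983), -0.20 ± 0.14 with haloperidol (adjusted p = 0.535) and -0.06 ± 0.16 with diazepam (adjusted p = 0.955).

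**Figure D2:**
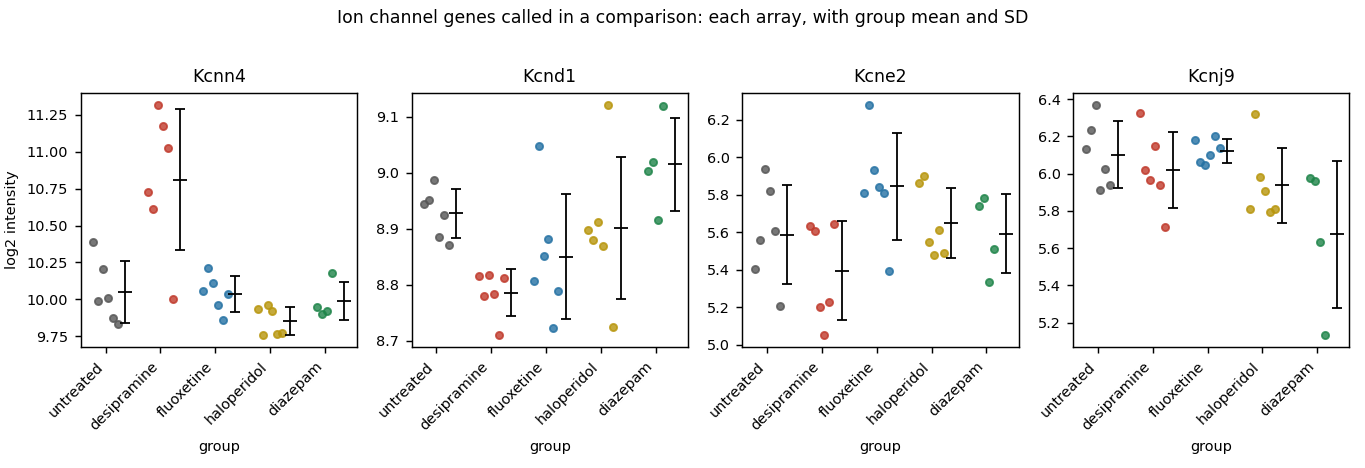
Log2 intensity of Kcnn4, Kcne2, Kcnd1 and Kcnj9 on each array (points, 6 per group and 4 for diazepam) with the mean and SD of each group (bars). For Kcnn4, 5 of the 6 desipramine arrays lie above all untreated arrays, while for the other 3 genes the group means differ by less than 0.5.

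The Kcnn4 difference was called in 1 of the 2 sets of array numbers. Within numbers 1 to 4 the Kcnn4 change was 0.81 ± 0.13 (adjusted p = 0.00087), and within numbers 5 and 6 it was 0.66 ± 0.25 (adjusted p = 0.584, 2 arrays per group). The latter mean joins unlike values, since desipramine minus untreated was 1.15 for number 5 and 0.17 for number 6. With any 1 of the 28 arrays left out, the Kcnn4 change ranged from 0.66 to 0.92 and the adjusted p from 1.11e-06 to 0.00381. KCa3.1 is also known in microglia and lymphocytes. Of the microglial markers, Cx3cr1 was detected on 16 arrays, Itgam on 9 and the other 3 (Aif1, Ptprc and Tyrobp) on 0, and their summed log2 intensity ranged from 24.26 to 25.00 in untreated and from 24.44 to 24.79 in desipramine arrays. Even Cx3cr1 and Itgam lay near background (mean log2 intensity 5.31 and 5.24), so this sum cannot show whether microglial content differed. Neither of the 2 microglial markers tested was called with any drug. Of the other markers, Olig1 of oligodendrocytes fell with desipramine (-0.69 ± 0.14, adjusted p = 0.00294), and the summed oligodendrocyte markers ranged from 46.08 to 47.32 there and from 47.12 to 48.06 in untreated arrays. The neuronal gene Nefl fell with fluoxetine (-0.58 ± 0.08), haloperidol (-0.40 ± 0.08) and diazepam (-0.41 ± 0.09), Vim with fluoxetine (-0.35 ± 0.10) and Gad1 with haloperidol (-0.38 ± 0.10), with adjusted p-values of 1.36e-05 to 0.0440. Their part in the channel results was not tested.

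The other channel genes changed little with desipramine. The largest changes after Kcnn4, among probes detected on every array of both groups, were those of Cacnb2 (0.23 ± 0.15, adjusted p = 0.452) and Scn1a (-0.22 ± 0.11, adjusted p = 0.333). Kcnd1 was at 8.87, 8.93 and 8.99 (lowest, median and highest) in untreated cells and at 8.71, 8.80 and 8.82 with desipramine. These groups did not overlap, but the change of -0.14 ± 0.06 had an adjusted p of 0.221. Kcnd1 was the only 1 of the 52 without overlap in this comparison. The share of all tested probes without overlap was not counted, so this is not read as a result about channels. P2rx4 (-0.22 ± 0.09, adjusted p = 0.166), Trpv4 (-0.22 ± 0.10, adjusted p = 0.250) and Trpv2 (0.19 ± 0.08, adjusted p = 0.160) also missed the threshold.

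Fluoxetine, haloperidol and diazepam each changed 0 of the 52 probes by limma's adjusted p, where 3.75%, 3.73% and 0.792% of all tested probes were called. Without adjustment, 2, 0 and 3 of the 52 had a p under 0.05, and 5 with desipramine. The corresponding shares of all tested probes were 15.7%, 16.1% and 9.31%, and 17.8% with desipramine. Of the 23 channel probes detected on all arrays, 1 was called with desipramine and 0 with the other drugs. The shares of all probes so detected were 6.89% with desipramine, 4.55% with fluoxetine, 4.51% with haloperidol and 0.954% with diazepam.

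With fluoxetine the 3 largest changes among probes detected on all arrays of both groups were those of P2rx4, Kcnab1 and Scn7a. P2rx4 had a lowest, median and highest value of 8.66, 8.75 and 8.99 in untreated cells and of 8.37, 8.63 and 8.73 with fluoxetine, so the groups overlapped (-0.18 ± 0.09, adjusted p = 0.310). The change was 0.15 ± 0.09 for Kcnab1 (adjusted p = 0.457) and 0.15 ± 0.12 for Scn7a (adjusted p = 0.613). Cacna2d3, detected on 4 of 6 untreated and all 6 fluoxetine arrays, changed its call with the model. Its change was 0.26 ± 0.12 (adjusted p = 0.284), and with the array number as a block it was 0.26 ± 0.07 (limma adjusted p = 0.0227), with overlapping values of 5.15 to 5.64 in untreated and 5.30 to 6.10 in fluoxetine arrays. The Cacna2d family of auxiliary subunits aids the delivery of calcium channels to the cell surface.

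With haloperidol the 3 largest changes among probes detected on all arrays of both groups were -0.20 ± 0.14 for Kcnn4, -0.20 ± 0.12 for Scn7a (adjusted p = 0.449) and 0.18 ± 0.12 for Clcn3 (adjusted p = 0.499). Scn7a had a lowest, median and highest value of 8.03, 8.44 and 8.53 in untreated cells and of 7.95, 8.22 and 8.34 with haloperidol. The groups overlapped through untreated array 1, which had the lowest untreated value.

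With diazepam the largest change among probes detected on all arrays of both groups was that of Clcn2. Clcn2 had a lowest, median and highest value of 5.89, 6.09 and 6.27 in untreated cells, and diazepam arrays 1, 4, 5 and 6 had 6.20, 6.23, 6.73 and 6.63. Arrays 5 and 6 were above every untreated array and arrays 1 and 4 were not. The change of 0.36 ± 0.12 had an unadjusted p of 0.00592 and an adjusted p of 0.215. Kcnj9, detected on 3 of the 4 diazepam arrays, had a change of larger size (-0.43 ± 0.13, adjusted p = 0.162). Scn7a (-0.23 ± 0.13, adjusted p = 0.645) and Clcn3 (0.18 ± 0.13, adjusted p = 0.749) followed among the probes detected on all arrays.

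**Figure D3:**
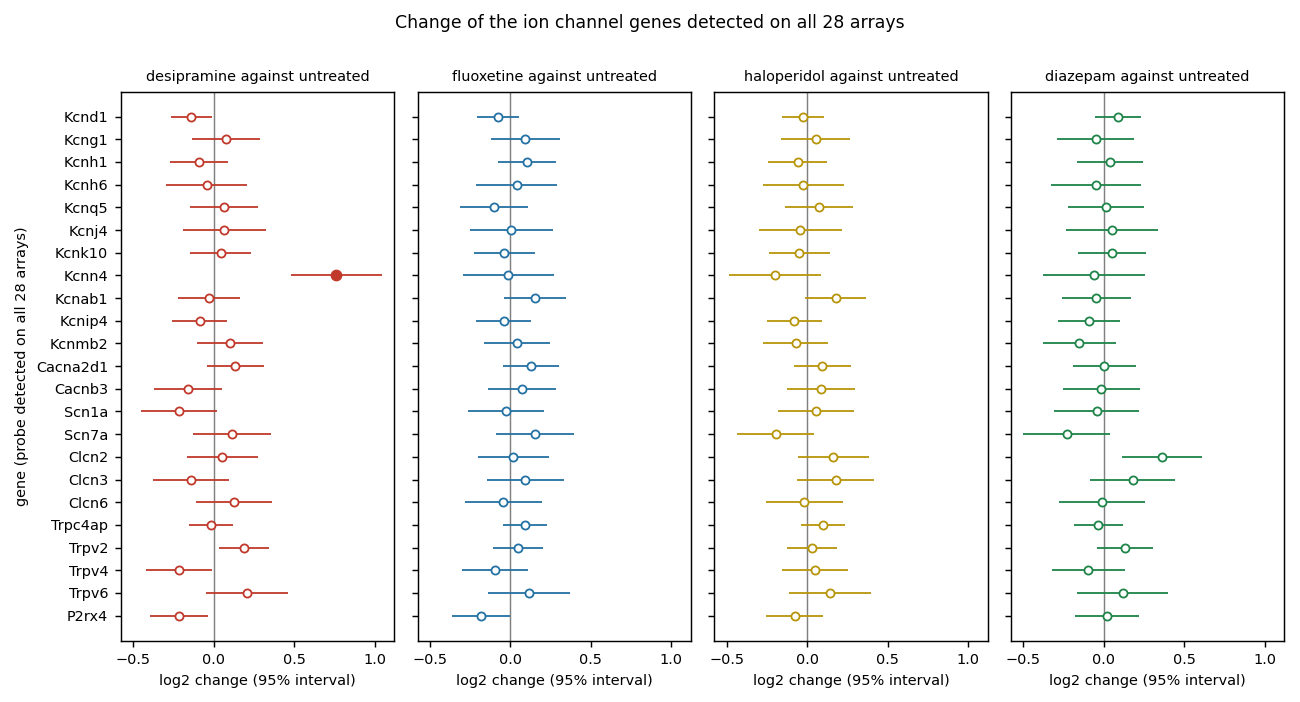
Log2 change against untreated cells of the 23 ion channel genes detected on all 28 arrays, with 95% intervals, in 1 panel per drug. Only Kcnn4 with desipramine has an adjusted p under 0.05, and the other 22 genes lie between -0.23 and 0.36 in all panels.

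For most of the detected channel genes the arrays were precise enough to bound the change. The 22 genes other than Kcnn4 that were detected on all arrays had changes between -0.23 and 0.36 with the 4 drugs, and their 95% intervals lay between -0.50 and 0.61. The interval stayed within a 1.5-fold change either way for 22 of the 23 genes with desipramine, 23 with fluoxetine, 23 with haloperidol and 22 with diazepam. The exceptions among the 23 were Kcnn4 with desipramine and Clcn2 with diazepam. Of all 8387 probes detected on all arrays, 7807 stayed within that bound with desipramine, 7826 with fluoxetine, 7870 with haloperidol and 7911 with diazepam. Such bounds were thus usual on these arrays and are not particular to channels. The 29 tested probes that were not detected on all arrays had group means between 5.03 and 6.12 and changes between -0.43 and 0.31, with no adjusted p below 0.162. At that level the offset shortens changes, so these intervals say less. The same holds for Kcnj4, Kcnk10 and Kcnh1, which were detected on all arrays with group means between 5.64 and 5.97. It holds in part for Kcnmb2, Clcn6, Trpv2 and Clcn2, whose lowest group means were 6.02, 6.06, 6.08 and 6.09.

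The size of change of channel probes was set beside that of all probes with the same detection. Among probes detected on all arrays, the median absolute log2 change was 0.112 for the 23 channel probes and 0.0970 for all 8387 with desipramine, and 0.0774 and 0.0939 with fluoxetine. It was 0.0719 and 0.0970 with haloperidol and 0.0502 and 0.0816 with diazepam. Among these probes the channel median was the larger with desipramine and the smaller with the other 3 drugs. Over the 52 tested channel probes and all 11364 tested probes it was 0.0890 and 0.0928 with desipramine, so the order turned there. The same medians were 0.0700 and 0.0882 with fluoxetine, 0.0712 and 0.09 with haloperidol and 0.0813 and 0.0837 with diazepam. These pairs are given as a description without a test.

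**Figure D4:**
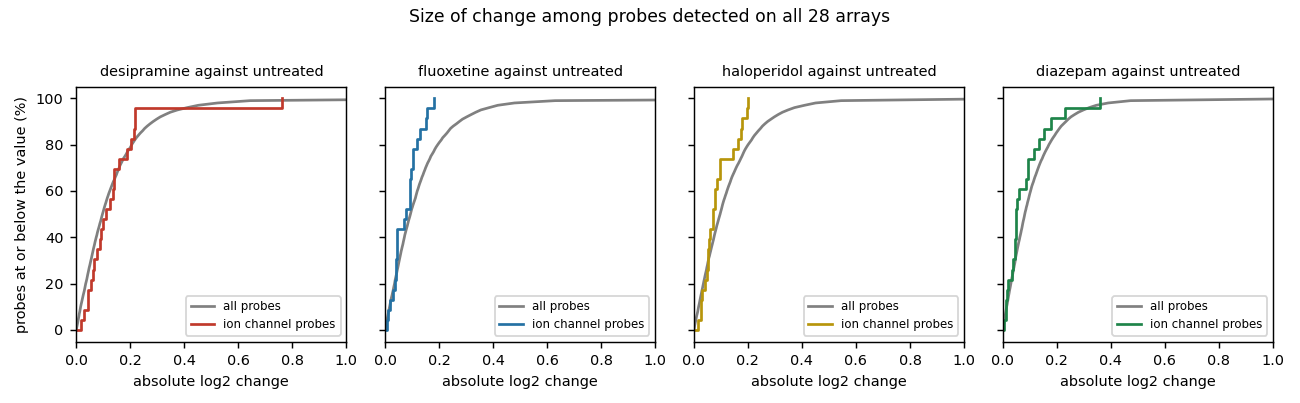
Cumulative percentage of probes at or below each absolute log2 change, for the 23 ion channel probes and all 8387 probes detected on all 28 arrays, in 1 panel per drug. The medians of the channel probes are 0.112 with desipramine, 0.0774 with fluoxetine, 0.0719 with haloperidol and 0.0502 with diazepam.

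A test for any difference among the 5 groups called Kcnn4 alone (moderated F test in limma, adjusted p = 5.82e-05), that is 1 of 52 probes (1.92%) against 16.1% of all tested probes. Among probes detected on all arrays the shares were 1 of 23 (4.35%) and 19.2%. The next smallest adjusted p among those 23 was 0.0693, for Scn7a. The count was sensitive to single arrays, and the share of all probes called without each array was not counted. Without untreated array 1, fluoxetine array 1 or fluoxetine array 2 it was 2, with Scn7a added, and without fluoxetine array 6 it was 2, with Kcne2 added. Without haloperidol array 2 or diazepam array 1 it was 2, with Kcnj9 added, and without diazepam array 4 it was 3, with Kcnj9 and Scn7a added.

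Since the comparisons with untreated cells share the untreated arrays, the drugs were also compared with each other. Over the 6 pairs of drugs there were 6 calls among the 52 ion channel probes, for 4 genes and in 4 pairs. Over all tested probes and the 6 pairs, 5.89% of the tests gave a call. Over all probes, 8.29% were called between desipramine and fluoxetine, 8.26% between desipramine and haloperidol, 8.09% between desipramine and diazepam, and 4.78% between fluoxetine and diazepam. Fluoxetine against haloperidol (3.63%) and haloperidol against diazepam (2.3%) gave 0 channel calls.

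Kcnn4 was higher with desipramine than with each of the other drugs. Against fluoxetine Kcnn4 was 1.71-fold higher (0.77 ± 0.14, adjusted p = 0.00053) and against diazepam 1.77-fold higher (0.82 ± 0.16, adjusted p = 0.00065). In both pairs desipramine array 6, at 10.00, was the one that overlapped with the other group. Against haloperidol Kcnn4 was 1.94-fold higher (0.96 ± 0.14, adjusted p = 2.83e-05), and the lowest desipramine value, 10.00, was above the highest haloperidol value, 9.96. The Kcnn4 differences within array numbers 1 to 4 were 0.88, 1.07 and 1.03 against fluoxetine, haloperidol and diazepam (adjusted p = 0.00035, 5.28e-05 and 0.00071). Within numbers 5 and 6 they were 0.57, 0.75 and 0.46 (adjusted p = 0.742, 0.348 and 0.406). On median-scaled values the Kcnn4 calls held in all 3 pairs (0.73, 0.88 and 0.90, adjusted p = 0.0123, 0.00156 and 0.00456).

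Kcne2 was lower with desipramine than with fluoxetine, at 5.39 ± 0.26 against 5.85 ± 0.28 (SD, n = 6 and 6). The Kcne2 values ran from 5.05 through 5.42 to 5.64 with desipramine and from 5.39 through 5.83 to 6.28 with fluoxetine, and overlapped. The probe was detected on 3 of 6 desipramine and 6 of 6 fluoxetine arrays. The difference of -0.45 ± 0.13 had an adjusted p of 0.0321. Within array numbers 1 to 4 it was -0.59 (adjusted p = 0.0172) and within numbers 5 and 6 it was -0.16 (adjusted p = 0.918). Leaving out desipramine array 3, 4 or 5 or fluoxetine array 2, 3 or 4 ended the call, with a difference between -0.45 and -0.36 and an adjusted p between 0.0535 and 0.107. The Kcne2 call was also lost on median-scaled values (-0.49, adjusted p = 0.0546) and without the detection filter (-0.45, adjusted p = 0.0672).

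Kcnd1 was lower with desipramine than with diazepam, at 8.79 ± 0.04 (n = 6) against 9.02 ± 0.08 (n = 4), a difference of -0.23 ± 0.07 (adjusted p = 0.0383). All desipramine values, 8.71 to 8.82, were below all diazepam values, 8.92 to 9.12. Within array numbers 1 to 4 the Kcnd1 difference was -0.21 (adjusted p = 0.168) and within numbers 5 and 6 it was -0.26 (adjusted p = 0.429). Leaving out desipramine array 2, 3, 4 or 5 or diazepam array 1, 4 or 6 ended the call, with a difference between -0.23 and -0.19 and an adjusted p between 0.0546 and 0.144. The Kcnd1 call was also lost on median-scaled values (-0.18, adjusted p = 0.772) and on the authors' normalized values (-0.20, adjusted p = 0.116).

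Kcnj9 was higher with fluoxetine than with diazepam, at 6.12 ± 0.06 (n = 6) against 5.68 ± 0.39 (n = 4), a difference of 0.45 ± 0.13 (adjusted p = 0.0459). Diazepam arrays 1, 4, 5 and 6 had 5.98, 5.96, 5.64 and 5.13 for Kcnj9, all below the lowest fluoxetine value, 6.05, and 3 of the 4 detected the probe. Diazepam arrays 1 and 4 were close to the fluoxetine values and arrays 5 and 6 were further below. The Kcnj9 difference was 0.13 within numbers 1 to 4 (adjusted p = 0.787) and 0.79 within numbers 5 and 6 (adjusted p = 0.0769). Leaving out 1 array ended the call in 16 of 28 cases, with a difference from 0.26 to 0.46 and an adjusted p from 0.05003 to 0.294. These arrays were untreated 2 and 5, desipramine 2, 3 and 5, fluoxetine 1 to 6, haloperidol 3, 4 and 6, and diazepam 5 and 6. The Kcnj9 call was also lost on median-scaled values (0.44, adjusted p = 0.156), on the authors' normalized values (0.36, adjusted p = 0.0532), with an offset of 50 (0.27, adjusted p = 0.0569), without the detection filter (0.45, adjusted p = 0.0852) and with array weights (0.34, adjusted p = 0.146).

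With the array number as a block, pairs of drugs whose same-numbered arrays deviated together gave further calls. Between desipramine and haloperidol, Clcn3 (-0.32 ± 0.10, adjusted p = 0.0278) and Trpv4 (-0.27 ± 0.08, adjusted p = 0.0209) were called lower with desipramine. Between fluoxetine and diazepam, Scn7a was called higher with fluoxetine (0.40, adjusted p = 0.0357) and Clcn2 lower (-0.33, adjusted p = 0.0330), and Kcnj9 stayed called (0.41, adjusted p = 0.0322). Without the block, Clcn3, Trpv4, Scn7a and Clcn2 missed the threshold in those pairs. The calls given here are a part of those made with the block, and the share of all probes called with it was not counted.

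Genes that move ions beside these channels were described from a list of 71 pumps, exchangers, store-operated and endolysosomal channels, anion channels, connexins and water channels, of which 58 had a probe and 39 were tested. On all 28 arrays 32 of the 58 were detected. Desipramine raised 1 of the 39, Atp2b1, which encodes a calcium pump of the plasma membrane (1.34-fold, log2 change 0.42 ± 0.10, adjusted p = 0.0125). Haloperidol raised Atp2a2, the SERCA2 pump that fills the endoplasmic reticulum with calcium (0.25 ± 0.07, adjusted p = 0.0300), and Tpcn2, a channel of lysosomes (0.50 ± 0.13, adjusted p = 0.0169). It lowered Slc8b1, the mitochondrial sodium-calcium exchanger (-0.25 ± 0.07, adjusted p = 0.0448). Fluoxetine and diazepam changed 0 of the 39 by limma's adjusted p. The shares called among all tested probes were 5.59% with desipramine, 3.73% with haloperidol, 3.75% with fluoxetine and 0.792% with diazepam, and the calls of this list were not compared within sets of array numbers. No call with any of the 4 drugs was made for the tested store-operated entry genes or anion channels outside the Clcn family. The same was true of Atp1b1, Atp1b2 and Atp1b3 of the sodium-potassium pumps and of the aquaporins Aqp1 and Aqp9. The Atp1a genes of the sodium-potassium pumps and Aqp4 were not tested, so nothing is said of them.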

How the data were processed

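The deposited table holds, per probe and array, an intensity that the authors read with GenomeStudio 1.9.0 (per the submitters' processing notes) and did not scale between arrays, and a detection p-value in steps of 1 in 825. The authors also deposited normalized intensities on a linear scale, by a method not given in the sources used here, which served as an alternative. The 4 columns of 2 arrays that belong to no sample of the series were left out. Background correction and quantile normalization used neqc in limma 3.58.1 (R 4.3.3) with an offset of 16 and negative controls inferred from the detection p. The tests kept 11364 of 22523 probes, those whose detection p was under 0.05 on 4 or more of the 28 arrays. One linear model with a mean per group gave moderated two-sided tests, adjusted by Benjamini-Hochberg over all probes kept, with a threshold of 0.05. The number of arrays limits the precision. The script's tests were checked on simulated data.

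Probes were matched to genes by the platform annotation supplied with the series. Symbols came from a reference gene list (RefSeq) through the gene identifier, or from the annotation where that list had none. No genome build was given. Members, gene lists and tests were chosen with earlier results of these data known. Named with full values were members past the threshold in any comparison and, per drug, the 3 largest changes against untreated cells among probes detected on all arrays of both groups. Other members named (Kcnd1, P2rx4, Trpv2 and Trpv4 with desipramine, Cacna2d3 with fluoxetine, Kcnj9 with diazepam) were chosen after their values were seen. Whether array numbers pair the samples was read from the correlation of same-numbered arrays' deviations from group means. Every pair exceeded 0.1 for untreated with desipramine (0.22 to 0.47) and with fluoxetine (0.10 to 0.51), and for desipramine with fluoxetine (0.14 to 0.46), desipramine with haloperidol (0.29 to 0.42) and fluoxetine with diazepam (0.26 to 0.51), but not for the other 5 pairs of groups. Alternatives were other scalings, offsets and filters, the authors' values, array numbers as a block, subsets of numbers and leaving out each array.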

Additional observations from a re-analysis of the deposited data

Results flagged for a closer look

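In 6 of 55 groups tested over 11 probes, 1 array stood apart from the rest of its group by Dixon's criterion, where chance gives about 1 in 20. Kcnn4 had 10.18 on diazepam array 6, above 9.90 to 9.95 on the other 3. Kcnd1 had 8.71 on desipramine array 5, below 8.78 to 8.82 on the other 5. Kcnj9 had 6.32 on haloperidol array 2, above 5.80 to 5.98. Scn7a had 8.03 on untreated array 1, below 8.38 to 8.53. P2rx4 had 8.99 on the same untreated array, above 8.66 to 8.77. Scn1a had 6.58 on untreated array 4, below 6.84 to 6.99. The Kcnn4 array behind the smallest desipramine difference, desipramine array 6, did not meet this criterion.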

How the results depend on the processing

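The Kcnn4 rise with desipramine was called under all alternatives run except within array numbers 5 and 6, where desipramine against untreated, the F test and the drug pairs each gave 0 channel calls. The share of all probes called within numbers 5 and 6 was not counted, so the absence of channel calls there is not particular to channels. With the replicate number as a block, fluoxetine gave 1 call (Cacna2d3), the F test 4 (Kcnn4, Cacna2d3, Clcn2 and Scn7a) and the drug pairs 15, and the counts for desipramine, haloperidol and diazepam against untreated did not change. The share of all probes called with the block was not counted, so the higher counts are not read as a result about channels. Median scaling gave 3 calls over the drug pairs, all Kcnn4. With single arrays left out, the count stayed at 1 for desipramine and 0 for the other drugs against untreated, ranged from 1 to 3 for the F test and from 3 to 8 for the drug pairs, where it was 3, all Kcnn4, without desipramine array 3 or 5. The shares of all probes called with single arrays left out were not counted. Of the other alternatives for named genes, 141 kept direction and call status, 18 lost the call and 0 changed direction. The 141 include named changes that were not called in the main fit and stayed uncalled. All 18 losses came from results called in the main fit, so the 141 do not measure how firm the calls were. The cause of the lost calls was not tested. Median scaling moved the median of all probes by -0.09 with desipramine and -0.12 with diazepam, and called 245, 158, 84 and 21 probes with desipramine, fluoxetine, haloperidol and diazepam against 635, 426, 424 and 90, of which 33.1%, 58.9%, 70.2% and 9.52% were higher against 60.3%, 58.9%, 61.1% and 47.8%. On the authors' values 75 probes were called with diazepam, 34.7% of them higher. Probes near background limit the rest: at a detection p under 0.01, a threshold chosen after seeing the data, 33 channel probes rather than 52 were detected on 4 or more arrays.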
